A study of Mus musculus with 6 samples.

Results

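The receptors described here are 36 G protein-coupled receptors that act in, or are known from, cells of the pituitary: receptors for melatonin, dopamine, somatostatin, hypothalamic releasing hormones, incretins, prostaglandins, adenosine, lysophospholipids and several neuropeptides. They were read in LβT2 cells, an immortalized mouse gonadotrope line whose labels give CB6F1/J as strain, as every array probe annotated with the symbol of a listed receptor. Of the 36 genes, 30 had at least 1 probe, and these 30 genes had 48 of the 45281 probes on the array. Vipr2, Adrb1, Adora1, Adora2a, Adora2b and Ptger1 had no probe matched to them and were not analysed here. Cells transfected with a scrambled control siRNA (3 samples) were compared with cells transfected with an siRNA labelled Gas (3 samples), both for 48 h in the same serum-containing medium, with 1 Illumina mouse BeadChip array per sample. All 6 samples come from 1 cell line. The labels give no separate cultures behind the replicates, and the p-values therefore cover the spread among samples that could be technical repeats.

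G protein-coupled receptors sit in the cell membrane and pass a ligand's signal to a heterotrimeric G protein. Receptors coupled to Gs stimulate adenylyl cyclase and raise cyclic AMP, receptors coupled to Gi inhibit it, and receptors coupled to Gq activate phospholipase C and release calcium. Gas was read as the alpha subunit of Gs, encoded by Gnas, so the siRNA is directed at the transcript of the protein through which the Gs-coupled members signal. The receptors were grouped by their best known coupling: 12 Gs, 13 Gi, 6 Gq, and 5 with several or unsettled couplings.

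The target and the cell type were read first. On the brightest Gnas probe the normalized log2 intensity was 11.81, 11.76 and 11.87 with scrambled siRNA and 8.84, 8.96 and 8.93 with Gas siRNA, a 7.50-fold lower level (log2 change -2.91, SE 0.0865, limma adjusted p = 2.48e-20), and a second probe fell by 3.00 on the log2 scale. The other 5 kept Gnas probes, all near background, did not pass: 4 had changes from -0.62 to 0.20, and the fifth (limma adjusted p = 0.0583) was above the bound on 0 of the 3 Gas siRNA arrays. With all 7 kept probes averaged the change was -1.12 (limma adjusted p = 4.52e-04). The gonadotrope markers Cga, Gnrhr and Lhb were above background on all 6 arrays, as were 8 of the 9 markers with a probe, and Fshb was above it on 0 arrays. Of 8 probed markers of other pituitary cells, 6 (those of lactotropes, thyrotropes, corticotropes, melanotropes and S100b cells) were not above background. Gh lay just over it on all 6 arrays, with intensities from 144.9 to 184.7 against a bound of 141. The progenitor marker Sox2 was over the bound on 3 of the 6 arrays, with intensities from 125.3 to 160.2. Its other probe was over it on 0 arrays. Correlations between arrays across probes ranged from 0.991 to 0.992, and the number of arrays limits the precision of every value. In bulk RNA, fewer cells with a transcript and less transcript per cell cannot be told apart.

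The sequences just upstream of 4 receptor genes are shown. Mtnr1a and Drd4 were picked because they fell with Gas siRNA. Sstr2 and S1pr2 were picked because they hold a full cyclic AMP response element, and they did not pass the test. Each sequence is the 250 bases before the annotated gene start in GRCm38.p6, from RefSeq, 5′ to 3′ on the gene's strand. Capitals mark the cyclic AMP response element TGACGTCA, the palindrome bound by CREB family factors, which are activated by cyclic AMP through protein kinase A.
Mtnr1a (chr8:45068857-45069106, plus strand): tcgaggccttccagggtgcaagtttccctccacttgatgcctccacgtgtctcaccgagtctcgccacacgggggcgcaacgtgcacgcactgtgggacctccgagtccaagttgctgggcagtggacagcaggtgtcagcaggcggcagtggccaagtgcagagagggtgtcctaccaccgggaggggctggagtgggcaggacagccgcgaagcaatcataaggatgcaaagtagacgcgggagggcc
Drd4 (chr7:141291768-141292017, plus strand): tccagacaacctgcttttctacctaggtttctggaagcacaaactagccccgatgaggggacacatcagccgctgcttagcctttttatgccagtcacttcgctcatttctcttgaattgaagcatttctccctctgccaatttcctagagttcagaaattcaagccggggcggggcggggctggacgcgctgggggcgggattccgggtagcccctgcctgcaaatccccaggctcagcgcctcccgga
Sstr2 (chr11:113619077-113619326, plus strand): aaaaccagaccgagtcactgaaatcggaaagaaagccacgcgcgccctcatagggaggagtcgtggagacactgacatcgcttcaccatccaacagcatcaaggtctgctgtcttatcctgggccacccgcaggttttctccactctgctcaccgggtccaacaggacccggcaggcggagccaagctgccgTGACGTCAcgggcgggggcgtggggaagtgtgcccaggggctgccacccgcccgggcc
S1pr2 (chr9:20976794-20977043, minus strand): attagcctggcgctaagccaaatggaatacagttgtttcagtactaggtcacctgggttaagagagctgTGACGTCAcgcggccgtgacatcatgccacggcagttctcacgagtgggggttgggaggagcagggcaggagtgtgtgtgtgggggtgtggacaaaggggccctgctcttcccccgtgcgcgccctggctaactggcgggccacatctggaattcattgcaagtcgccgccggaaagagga
The element begins 58 bases before the start of Sstr2 and 181 bases before that of S1pr2. It occurred on either strand in 1.55% of all 32851 promoter windows of this length, and in 2 of the 15 windows of kept receptors. Neither its 5-base core TGACG (17.8% of all windows), nor TAATCC, the core bound by Pitx factors (6.25%), nor CAAGGTC, bound by SF1 (3.32%), nor GCGNGGGCG, bound by Egr1 (4.70%), was in the windows of Mtnr1a or Drd4. The core lies within the full element, so the windows of Sstr2 and S1pr2 hold both, and the Sstr2 window also held CAAGGTC and GCGNGGGCG. Among the other kept receptors, Vipr1 and Gpr83 held the core without the full element. These are letter matches in a short window and say nothing about binding. Whether the element goes with a change was not tested. RefSeq windows were matched for 26 of the 36 receptors.

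Which receptors gave a signal above background was asked before any change. An array's background was described by the mode of its intensities and the spread below it. A probe was kept if its intensity exceeded 141, which is the 95th percentile of the background, on at least 3 of the 6 arrays. By this measure 14 of the 30 probed receptor genes (46.7%) were above background, against 62.4% of all 19057 genes with a probe. Most receptor signals were weak. The bound limits what the array could show, so a receptor below it was not detectable here, which is not the same as absent.

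Of the 8 probed Gs-coupled receptors, 6 had a kept probe: Adcyap1r1, the PACAP receptor of gonadotropes, Vipr1, a receptor for VIP and PACAP, Crhr1, the corticotropin-releasing hormone receptor, Gipr and Glp1r, the incretin receptors, and Ptger4, a prostaglandin E2 receptor. All 6 lay close to the bound, with intensities from 128.4 to 213.5. Several of these genes also had probes that were not kept. Such probes were above the bound on 1, 0 and 0 arrays for Vipr1 and on 2 and 1 arrays for Crhr1. For Ptger4 and Adcyap1r1 they were above it on 0 arrays. On their brightest probe, 3 of the 6 genes (Adcyap1r1, Crhr1 and Gipr) were above the bound on all 6 arrays. The second kept Adcyap1r1 probe was above it on 4 arrays. Vipr1 was above the bound on 1 scrambled siRNA array and 3 Gas siRNA arrays, and Glp1r on 1 and 2. Glp1r was the only 1 of the 14 receptors lost at the 99th percentile of the background. The growth hormone-releasing hormone receptor gene Ghrhr and the prostaglandin receptor gene Ptger2 were not above background on any array.

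Of the 12 probed Gi-coupled receptors, 4 were kept, each on all 6 arrays: the melatonin receptor Mtnr1a, the dopamine receptors Drd2 and Drd4, and the somatostatin receptor Sstr2. The other 8 were not kept, namely Galr1, Npy1r, Npy2r, Ptger3, S1pr1, Sstr1, Sstr3 and Sstr5. Sstr2 was thus the 1 of 4 probed somatostatin receptors with a signal, on 1 of its 2 probes. Sstr5 lay just outside the rule, above the bound on 2 arrays.

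None of the 5 probed Gq-coupled receptors was kept: Avpr1b (vasopressin), Oxtr (oxytocin), Trhr (thyrotropin-releasing hormone), Kiss1r (kisspeptin) and Galr2 (galanin). This says nothing about Gq-coupled receptors outside the list. The receptor gene Gnrhr, read above as a gonadotrope marker, is not a member, and its intensities ran from 14079.5 to 16330.2. Avpr1b reached 164.1 on scrambled siRNA replicate 1 and was below the bound on the other 5 arrays, with intensities of 137.7 and 140.6 with scrambled siRNA and 135.2, 135.4 and 125.6 with Gas siRNA. Kiss1r exceeded the bound on 1 Gas siRNA array, at 143.6. Among the 5 receptors of several or unsettled couplings, S1pr2, Lpar1, Gper1 and Gpr83 were kept and Gpr50, an orphan relative of the melatonin receptors, was not. In all, 16 probed receptors were not kept. Of these, 12 were above the bound on 0 arrays and 4 (Avpr1b, Kiss1r, Ptger3 and Sstr5) on 1 or 2.

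**Figure D1:**
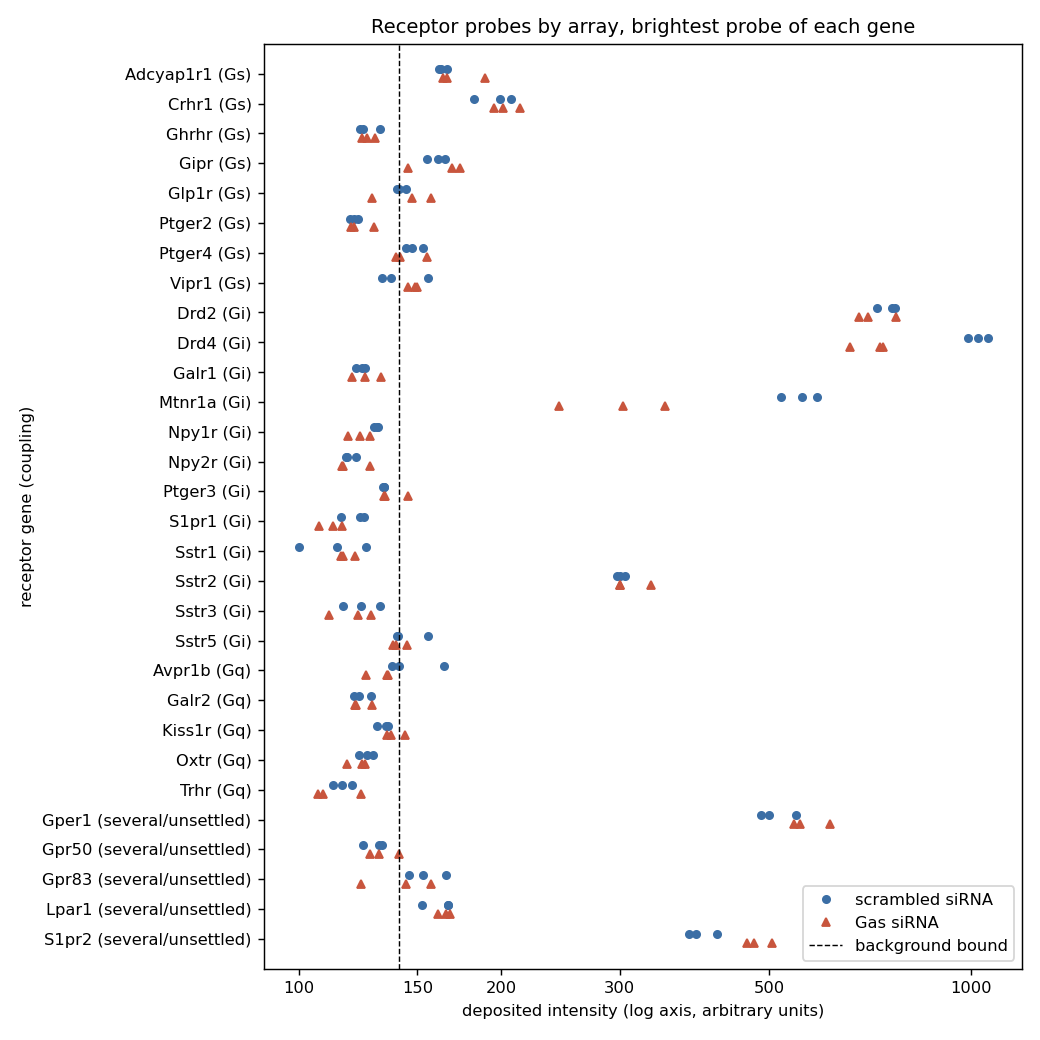
Deposited intensity (log axis) of the brightest probe of each of the 30 probed receptors, circles for the 3 scrambled siRNA arrays and triangles for the 3 Gas siRNA arrays, with the background bound of 141 as a dashed line. Mtnr1a, Drd4, Drd2, Sstr2, Gper1 and S1pr2 stand well to the right of the bound, the Gs-coupled genes lie near it, and intensities of different probes are not comparable as levels.

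The change with Gas siRNA was then read from a limma fit over all 22707 kept probes, in which 1.63% of 11890 genes passed at an adjusted p under 0.05 and 0.934% passed as lower and 0.698% as higher. Among the 14 kept receptors 2 fell, 0 rose and 12 did not pass. Both that fell, Mtnr1a and Drd4, are Gi-coupled, among 4 kept Gi-coupled genes. The receptors and their couplings were chosen with earlier results of these data known, so these counts can partly restate that choice. At an unadjusted p under 0.05, 1 receptor (S1pr2, on its brighter probe, which its other kept probe contradicts) was higher, where 5.59% of all genes were. The median log2 change was 0.12 over the 6 Gs-coupled genes, -0.34 over the 4 Gi-coupled genes and 0.15 over the 4 of several or unsettled couplings, against 0 over all genes. The last group's median was 0.062 with the probes of a gene averaged, which for S1pr2 disagreed. Groups did not overlap for 3 of the 14 receptors (21.4%), against 15.9% of all genes. Whether the coupling groups differ was not tested.

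Mtnr1a encodes the melatonin MT1 receptor, which in the rodent pituitary is known from the pars tuberalis and from immature gonadotropes. Its normalized log2 intensity was 8.68, 8.90 and 8.81 with scrambled siRNA and 7.59, 7.90 and 7.04 with Gas siRNA. The groups did not overlap, and Gas siRNA replicate 3 was the lowest array. The level was 2.44-fold lower (log2 change -1.29, SE 0.154, 95% confidence interval -1.60 to -0.97, limma adjusted p = 5.43e-06), the 4th largest fall among all genes. The SD over 3 arrays was 0.11 among control arrays, and it was 0.43 among Gas siRNA arrays. Without Gas siRNA replicate 3 the change was -1.05, and with no background correction, which leaves the background in both groups, it was -0.91.

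Drd4 encodes the dopamine D4 receptor, which lowers cyclic AMP. Its normalized log2 intensity was 9.89, 9.83 and 9.78 with scrambled siRNA and 9.28, 9.10 and 9.30 with Gas siRNA. All Gas siRNA arrays lay below all scrambled siRNA arrays, and both groups were tight, at 9.83 ± 0.055 and 9.22 ± 0.11 (SD, n = 3 each). The level was 1.53-fold lower (log2 change -0.61, SE 0.0981, 95% confidence interval -0.81 to -0.41, limma adjusted p = 4.89e-04), 78th among all falls. Each of Mtnr1a and Drd4 rests on 1 probe. Both kept their calls without any 1 array and both lost them when the variance was modelled without its trend along intensity (adjusted p = 0.175 for Mtnr1a and 0.191 for Drd4).

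Drd2, the dopamine receptor through which dopamine restrains lactotropes, is the other dopamine receptor among the members. Its log2 intensity was 9.34, 9.36 and 9.26 with scrambled siRNA and 9.15, 9.37 and 9.20 with Gas siRNA, and the groups overlapped. The log2 change was -0.080 with a 95% confidence interval from -0.29 to 0.13 (limma adjusted p = 0.875), an interval that does not reach the one of Drd4. The difference between the 2 genes' changes was not itself tested. Sstr2, the somatostatin receptor whose promoter window holds a cyclic AMP response element, had 7.54, 7.60 and 7.56 with scrambled siRNA and 7.56, 7.56 and 7.80 with Gas siRNA. Its groups overlapped too, with a change of 0.072 (95% confidence interval -0.21 to 0.36, limma adjusted p = 0.923).

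The 6 Gs-coupled receptors, those that signal through the protein Gnas encodes, did not pass. No protein was measured. Their log2 changes ran from -0.11 for Ptger4 to 0.24 for Vipr1, with limma adjusted p from 0.807 to 0.985. Both ends of this range moved when 1 array was left out. Vipr1 moved between 0.080 (without scrambled siRNA replicate 1) and 0.49 (without scrambled siRNA replicate 3). Ptger4 moved between -0.0081 (without Gas siRNA replicate 1) and -0.30 (without Gas siRNA replicate 3). The kept Vipr1 probe was above the bound on 1 scrambled siRNA array and 3 Gas siRNA arrays, so it was kept mainly through the higher group. At an unadjusted limma p under 0.05, 0 of the 6 passed in either direction. Of all 11890 genes, 665 passed as higher and 656 as lower at that threshold, so 0 of 6 says little about these receptors. Adcyap1r1 had log2 intensities of 5.68, 5.64 and 5.77 with scrambled siRNA and 6.28, 5.77 and 5.71 with Gas siRNA, with replicate 1 of Gas siRNA the highest, and its second kept probe gave a change of 0.020. Crhr1 had 6.14, 6.57 and 6.45 against 6.48, 6.39 and 6.67, a change of 0.13. Gipr, Glp1r and Ptger4 had changes of 0.024, 0.11 and -0.11. Groups did not overlap for 15.9% of all genes, and they overlapped for all 6 Gs-coupled genes. Their 95% confidence intervals together ran from -0.59 to 0.73, so changes up to about that size could not be told from none at these intensities.

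S1pr2, a sphingosine 1-phosphate receptor that couples to several G proteins, had 2 kept probes, which disagreed. On the brighter probe the log2 intensity was 8.12, 8.07 and 8.26 with scrambled siRNA and 8.62, 8.46 and 8.51 with Gas siRNA. This probe was higher with Gas siRNA on every array, by 0.38 (95% confidence interval 0.14 to 0.62), but did not pass (limma adjusted p = 0.151). On the dimmer probe the values were 6.45, 6.43 and 6.53 against 6.28, 6.21 and 6.00, lower on every Gas siRNA array, with a change of -0.30 (limma adjusted p = 0.636). With both probes averaged the change was 0.038, so no direction is given for the gene. The other S1pr2 probe was not above background.

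The remaining receptors did not pass either. Gper1, a membrane receptor described as responding to estrogen, had 8.55, 8.60 and 8.77 with scrambled siRNA and 8.80, 8.76 and 8.98 with Gas siRNA, groups that overlapped slightly, with a change of 0.20 (95% confidence interval -0.028 to 0.44, limma adjusted p = 0.591). Lpar1, a lysophosphatidic acid receptor, had a log2 difference of 0.087 and Gpr83 one of -0.42 (limma adjusted p = 0.646), the latter with a spread of 0.54 (SD, n = 3) among Gas siRNA arrays near the bound. The Gpr83 difference was -0.25 without scrambled siRNA replicate 3, -0.14 without Gas siRNA replicate 1, -0.68 without Gas siRNA replicate 3 and -0.13 with no background correction. Lpar1 and Gpr83 each had another probe, above the bound on 0 arrays. That of Gpr83 went the other way, with 4.48, 4.33 and 4.39 with scrambled siRNA and 4.49, 4.62 and 4.71 with Gas siRNA. Over the 12 receptors that did not pass, log2 changes ranged from -0.42 to 0.38.

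**Figure D2:**
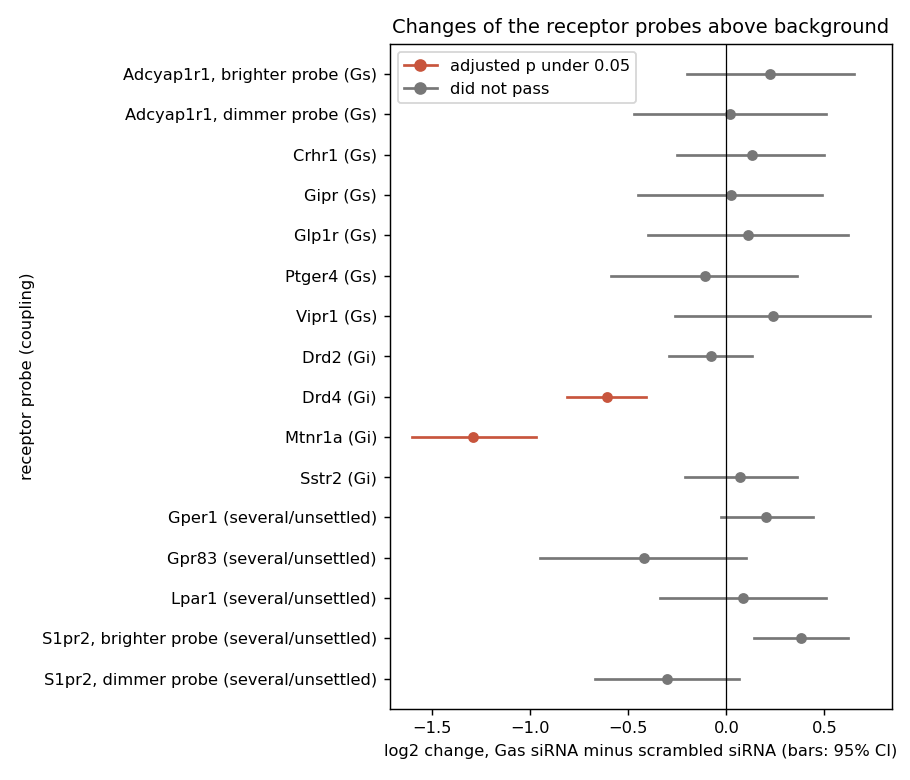
Log2 change (Gas siRNA minus scrambled siRNA) of the 16 kept receptor probes, grouped by coupling, with 95% confidence intervals as bars and the probes with an adjusted p under 0.05 in red. Mtnr1a at -1.29 and Drd4 at -0.61 are the red ones, and the 2 S1pr2 probes lie on opposite sides of 0.

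**Figure D3:**
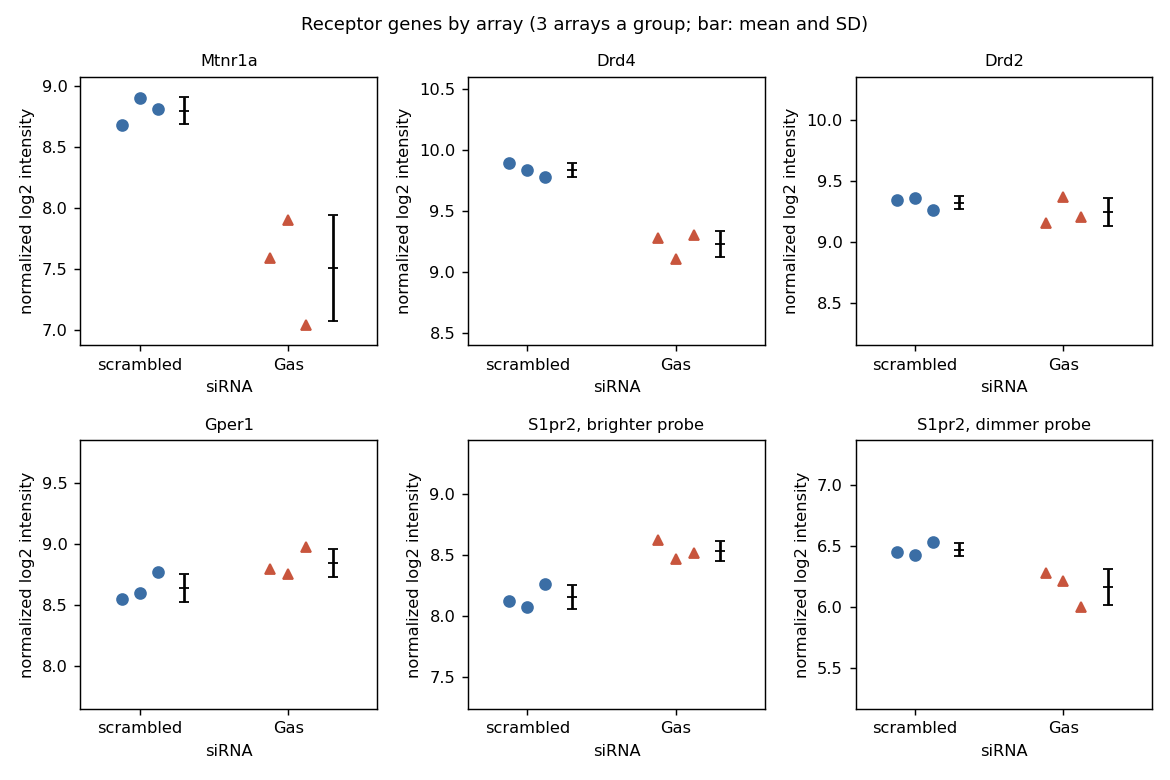
Normalized log2 intensity on each array for Mtnr1a, Drd4, Drd2, Gper1 and both S1pr2 probes, circles for scrambled siRNA and triangles for Gas siRNA, with bars for mean and SD (n = 3 each) and every axis spanning the same log2 range. The groups are apart for Mtnr1a, Drd4 and each S1pr2 probe, and overlap for Drd2 and Gper1.

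Proteins that act on receptors were read next, since they set how long and where a receptor signals. Of the 6 probed receptor kinase and arrestin genes, which phosphorylate active receptors and uncouple them, 4 were kept, 1 fell and 3 did not pass, where 0.934% of all genes fell. Grk5, a receptor kinase, had 10.22, 10.26 and 10.30 with scrambled siRNA and 9.82, 9.94 and 9.76 with Gas siRNA, 1.33-fold lower (log2 change -0.42, SE 0.0905, limma adjusted p = 0.0130). Its groups did not overlap on this probe or on its dimmer probe, where the change was -0.40 (limma adjusted p = 0.258). The Grk5 call was lost when replicate 3 of scrambled siRNA (adjusted p = 0.0693) or replicate 1 (0.0630) or 3 (0.0799) of Gas siRNA was left out, with its probes averaged (0.0754) and without the intensity trend (0.307). The arrestin genes Arrb1 and Arrb2 and the kinase gene Grk6 did not pass.

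RGS proteins shorten signals by speeding GTP hydrolysis, mostly on Gi and Gq subunits. Of 19 probed RGS genes 11 were kept, 1 fell (0.934% over all genes) and 10 did not pass, with a median log2 change of -0.037. Rgs16 had 11.25, 11.47 and 10.90 with scrambled siRNA and 10.53, 10.80 and 10.64 with Gas siRNA, 1.46-fold lower (log2 change -0.55, SE 0.105, limma adjusted p = 0.00359). The groups did not overlap, but scrambled siRNA replicate 3 lay close to the Gas siRNA arrays, and the call was lost without scrambled siRNA replicate 2 (0.0525) and without the intensity trend (0.385). Of 19 probed accessory and transport genes 14 were kept, 1 fell (again against 0.934%) and 13 did not pass. Rtp2, which carries odorant receptors to the cell surface, had 7.28, 6.77 and 7.52 with scrambled siRNA and 5.97, 5.94 and 6.25 with Gas siRNA, 2.20-fold lower (log2 change -1.14, limma adjusted p = 7.60e-04), with adjusted p = 0.191 without the intensity trend. With no background correction the Rtp2 change was -0.54 (limma adjusted p = 0.00131), and with the normexp offset of 50 it was -0.85. Ramp1, which pairs with class B receptors, had a change of -0.30 that did not pass (limma adjusted p = 0.120).

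**Figure D4:**
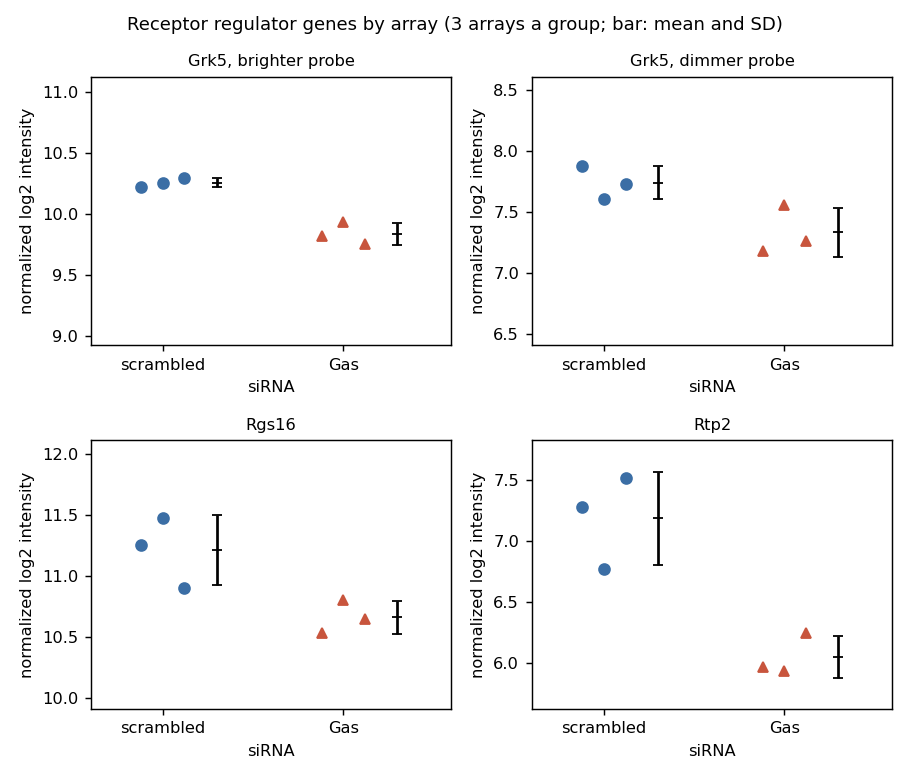
Normalized log2 intensity on each array for both Grk5 probes, Rgs16 and Rtp2, circles for scrambled siRNA and triangles for Gas siRNA, with bars for mean and SD (n = 3 each). All Gas siRNA arrays lie below all scrambled siRNA arrays in each panel, with the narrowest gaps for the dimmer Grk5 probe and Rgs16.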

How the data were processed

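Biotin-labelled RNA of 6 samples was hybridised to Illumina MouseWG-6 BeadChips, per the labels' protocols. The deposited intensity values are the authors' processed values, on a linear scale, made with BeadStudio per the submitters' processing notes; the sources used here do not give the normalization. Sorted columns agreed within 1.66% below the 10 brightest probes and the lowest value was 97.6, as after quantile normalization without background subtraction. Another 24 columns of signals before normalization carry names that fit no sample label and were left out. The depth of such arrays is their signal over background.

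From each array the mode of the intensities (127) and the SD below it (8.29 to 8.37) served as background for normexp (offset 16), followed by quantile normalization and log2. The platform annotation gave 1 symbol for 34885 probes and several for 18, and did not list 10378. The brightest kept probe stood for a gene. The comparison used limma (version 3.58.1, R version 4.3.3) with an intensity trend, 2-sided tests and Benjamini-Hochberg adjustment over all kept probes. Its variance estimate drew on a prior worth 24.8 degrees of freedom, against 4 left by the arrays. The procedure was also run on simulated data. No outcome of that run is given here, so it is not evidence for the calls or for the intensity trend. The receptors, their couplings and all gene lists were chosen with earlier results of these data known. All receptors are accounted for. Other genes are named where they check the siRNA or the cells, or changed and belong to a list. Some list genes that did not pass or were not kept, such as Ramp1, Gip, Oxt and Sst, are named outside that rule. The labels state no pairing, so the replicate numbers were not taken as pairs. Same-numbered arrays had deviation correlations of 0.016, 0.052 and 0.088, and differently numbered ones had values from -0.072 to 0.021. Alternatives covered background, normalization, filter, variance trend, array weights, probe averaging, a replicate block and leaving out each array.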

Additional observations from a re-analysis of the deposited data

How the results depend on the processing

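The 2 receptor calls, Mtnr1a and Drd4, were kept under every alternative tried except the fit without the intensity trend, which gave 0 receptors and 8 probes in all where the fit with it gave 257. Over the 16 alternatives the Mtnr1a change ranged from -1.48 to -0.91 and the Drd4 change from -0.64 to -0.53. With the probes of a gene averaged, 124 genes or probes without a symbol changed. That unit is unlike the 257 probes, among which 194 genes passed on their brightest kept probe. The number of changed probes over the array was between 146 and 209 without 1 array, and the cause of these differences was not tested. It was 146 without scrambled siRNA replicate 3, 167 without Gas siRNA replicate 2 and 154 without Gas siRNA replicate 3. With the replicate number as a block it was 429, the receptors called stayed at 2 and 5 of 6 arrays correlated best with their own number, but the design gives no pairing. The 14 receptors above background became 13 at the 99th percentile, 10 when all 6 arrays were required and 30 by construction with no filter. The small changes of receptors near background or near 0 that turned sign when 1 array was left out were those of Lpar1 (-0.055 without scrambled siRNA replicate 1, up to 0.16), Gipr (-0.052 without scrambled siRNA replicate 3, -0.083 without Gas siRNA replicate 1 and -0.14 without Gas siRNA replicate 2, up to 0.30), Glp1r (-0.11 without Gas siRNA replicate 3, up to 0.38) and Sstr2 (-0.0074 without Gas siRNA replicate 3, up to 0.11). Low signal limits the dimmer of the kept receptor probes. Standard errors on the log2 scale ran from 0.0981 for Drd4, well above the bound, to 0.256 for Gpr83, near it.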

Other observations

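The peptide ligand genes of these receptors gave little signal. Of 17 probed, 2 (11.8%) were kept, against 62.4% of all genes with a probe. They were those of the incretin Gip and of oxytocin, both near the bound on all 6 arrays, and neither passed. Gip had log2 intensities of 5.69, 5.70 and 5.90 with scrambled siRNA and 6.10, 5.97 and 6.46 with Gas siRNA, a change of 0.41 (limma adjusted p = 0.505), and Oxt had a change of -0.28 (limma adjusted p = 0.760). The genes of the other 15 peptides, among them those of PACAP (Adcyap1), somatostatin (Sst) and kisspeptin (Kiss1), were not kept.

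Of 14 probed genes for enzymes that make or clear small-molecule ligands, 8 (57.1%) were kept. On their brightest probe 0 passed in limma, where 1.63% of all genes did. At an unadjusted limma p under 0.05 also 0 passed, where 665 of 11890 genes were higher and 656 lower. Ddc, the decarboxylase that makes dopamine and serotonin, had a lower mean with Gas siRNA on each kept probe, by unlike amounts. Its dimmest kept probe had 7.04, 6.59 and 6.31 with scrambled siRNA and 5.57, 5.80 and 5.53 with Gas siRNA and fell by 1.02 on the log2 scale (limma adjusted p = 0.00607). Its 2 brighter probes had changes of -0.26 and -0.16 that did not pass (limma adjusted p = 0.494 and 0.741). With the kept probes averaged the Ddc change was -0.48 and did not pass (limma adjusted p = 0.14).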
